A study of Mus musculus with 3 samples.

Results

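Transcripts of the LY6 surface proteins and of Thy1 were examined in group 2 innate lymphoid cells (ILC2s), tissue lymphocytes that lack rearranged antigen receptors and make type 2 cytokines. The 9 genes Ly6a, Ly6c1, Ly6c2, Ly6d, Ly6e, Ly6g, Ly6i, Ly6k and Thy1 were taken by symbol from a table of 27179 gene IDs, and each had a row. The cells came from 3 wild-type C57BL/6 mice, 1 library per mouse, with no treatment, and the libraries are called mouse 1, 2 and 3 after the number in their titles. The sort kept cells with CD45, CD90.2, CD127 and KLRG1 on their surface and removed cells with CD11b, CD11c, NK1.1, B220, CD3, CD5 or CD8, so the protein of Thy1 (CD90.2) was itself a sorting criterion. The sources used here do not give tissue, age, sex or time of collection. The series holds a single group of cells, so levels and their spread between mice are described, and no condition is compared with another.

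LY6 proteins are small, cysteine-rich surface proteins that are held in the outer leaflet of the membrane by a glycosylphosphatidylinositol (GPI) anchor instead of a transmembrane segment. Many of their genes lie side by side in clusters. In mice they are used as surface markers: SCA-1 (Ly6a) of haematopoietic stem cells and of ILC2s, LY6C of monocytes and memory T cells, and LY6G of neutrophils. THY1 is a GPI-anchored protein of the immunoglobulin superfamily, abundant on T cells, innate lymphoid cells and neurons. Ly6a and Ly6e are known as genes that interferons induce.

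Summed over all genes, mouse 1 had 22112425 counts, mouse 2 had 17819551 and mouse 3 had 26374248. Levels are given as CPM, counts per 1000000 after scaling of the library sizes, as mean ± SD over 3 mice unless stated otherwise. All 13 ILC2 marker genes, among them Gata3 and Il1rl1, reached 1 CPM in each library and exceeded 100 CPM on average. Immunoglobulin genes took 1.04%, 3.89% and 7.81% of the counts in mice 1, 2 and 3. Of the 9 genes behind the removing antibodies other than B220, 3 were detected at 1 CPM in each library, Cd3g (321 ± 60.4 CPM), Cd3e and Cd3d. Klrb1c (NK1.1) had 0.0441, 6.54 and 2.95 CPM in mice 1, 2 and 3. The T cell list had 3 of 9 genes detected and summed to between 25.9 and 28.0 CPM, and the fibroblast list had 3 of 7 and summed to between 10.3 and 24.8. With 1 library per mouse, the spread between mice also holds variation from the sort and from cDNA amplification.

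The sequences come first because they bear on how reads were divided among the genes. Ly6c1 and Ly6c2 encode the proteins that share the name LY6C, and their coding sequences were identical at 387 of 396 aligned positions (97.7%). Ly6a and Ly6c1 were identical in 82.0% of 405 aligned columns, and Ly6a and Ly6i in 86.4%. The first 120 coding bases of the first listed GENCODE M21 transcript of 3 genes are shown from the start codon, 5′ to 3′, with capitals where Ly6c2 or Ly6a differs from Ly6c1.
Ly6c1: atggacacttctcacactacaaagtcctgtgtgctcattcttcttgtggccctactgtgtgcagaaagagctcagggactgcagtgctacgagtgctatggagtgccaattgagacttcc
Ly6c2: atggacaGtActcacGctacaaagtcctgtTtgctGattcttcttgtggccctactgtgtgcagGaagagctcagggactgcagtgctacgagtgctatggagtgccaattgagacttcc
Ly6a: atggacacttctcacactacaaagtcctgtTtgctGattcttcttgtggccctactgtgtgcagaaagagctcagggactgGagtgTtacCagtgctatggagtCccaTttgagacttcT
Ly6c2 differed from Ly6c1 at 6 of these 120 positions and Ly6a at 8. Of all stretches of 50 bases in the transcripts of Ly6c1, 32.8% also occurred in a transcript of another gene, most often Ly6c2. The share was 19.0% for Ly6a, most often shared with Ly6c1, and 14.4% for Ly6c2. Ly6e, Ly6d, Ly6k and Thy1 shared 0 such stretches with any other gene. How reads matching more than 1 gene were counted is not given in the sources used here, which leaves uncertain how counts were divided between Ly6c1 and Ly6c2, and the counts of Ly6a and Ly6i may hold or lack some shared reads.

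**Figure D1:**
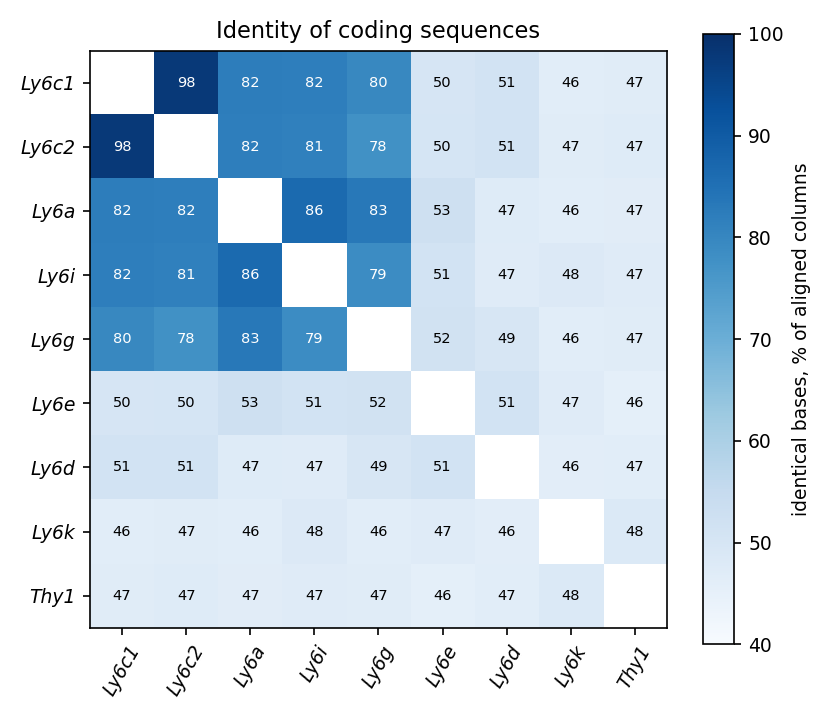
Percentage of identical bases in global alignments of the coding sequences of each pair of the 9 genes (first listed complete coding transcript, GENCODE M21). Ly6c1, Ly6c2, Ly6a, Ly6i and Ly6g form a group at 77.5% to 97.7%, whereas the highest identity of Ly6e with any other member was 52.7%.

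In 3 of 3 mice the family was represented above all by Ly6e and Ly6a. Detected here means at least 1 CPM in all 3 libraries. Of the 9 members 4 met this, Ly6e, Ly6a, Ly6d and Thy1, against 31.1% of all gene IDs and 38.0% of the protein-coding genes in the table. The median of the mean levels of all 9 members, with Ly6g at 0 included, was 4.25 CPM. Over all gene IDs it was 0.0441 CPM and over the protein-coding genes 0.471 CPM, genes without a count included. Over the 15092 genes with a count, a set that leaves out genes such as Ly6g, it was 5.28 CPM. The 9 genes together took 0.787%, 0.596% and 0.795% of the library counts in mice 1, 2 and 3. Of these family counts Ly6e made up 84.2%, 80.2% and 85.2% in the same order, with 95% Clopper-Pearson intervals from 84.0% to 84.4%, from 80.0% to 80.4% and from 85.0% to 85.3%. Ly6a followed with 15.5 ± 3.04% (SD, n = 3), and the other 7 genes together held the small remainder. Reads carried no molecular identifiers, so these intervals cover counting error only.

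**Figure D2:**
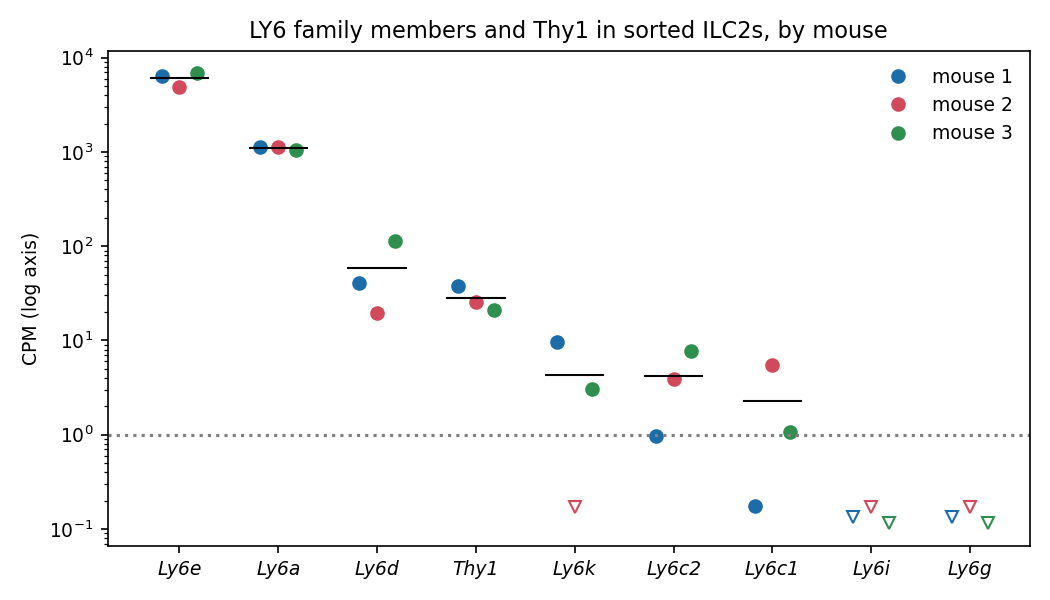
CPM (log axis) of each member in mouse 1 (blue), mouse 2 (red) and mouse 3 (green), with the mean as a bar and 1 CPM as a dotted line. Open triangles mark libraries with fewer than 3 counts, drawn at the CPM of 3 counts. Ly6e and Ly6a stand above all other members in every mouse, and the points of Ly6k and Ly6c1 are spread over more than a factor of 30.

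Ly6e encodes a widely expressed LY6 protein, also known as SCA-2 or TSA-1, that affects the entry of several viruses into cells. The gene lies on the plus strand of chromosome 15 (74955025 to 74959904, GRCm38). It had 146653, 85223 and 178524 counts, or 6470, 4847 and 6847 CPM, in mice 1, 2 and 3. The level was 6054 ± 1063 CPM, which ranked 14th among all genes of the table. Mouse 2 was lowest, and the highest value was 1.41 times the lowest. The coefficient of variation of 17.6% was close to the median of 16.0% over the 28 other genes within 2-fold of its mean.

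Ly6a, which encodes SCA-1, lies on the minus strand of chromosome 15 (74994877 to 74998031). Its counts of 25450, 20071 and 27250 corresponded to 1123, 1141 and 1045 CPM in mice 1, 2 and 3. The 3 values lay within a factor of 1.09 of each other. The level of 1103 ± 51.1 CPM had a coefficient of variation of 4.64%, and 95.1% of the 245 other genes within 2-fold of this mean varied as much or more. Ly6a ranked 115th of all genes by mean CPM. RefSeq places a long non-coding gene, Gm28068, across Ly6i and Ly6a, which was not analysed here. The library kit does not mark strand, so reads from such a gene in Ly6a exons cannot be told apart from Ly6a reads.

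Ly6d encodes an LY6 protein used as a marker of early B lymphoid progenitors and of stratified epithelium. It lies at the edge of the same cluster, on the minus strand (74762056 to 74763567). It had 916, 342 and 2981 counts, that is 40.4, 19.5 and 114 CPM in mice 1, 2 and 3. Mouse 3 was 5.88 times as high as mouse 2, and both other mice lay below 50 CPM. Among 2312 other genes within 2-fold of its mean of 58.1 ± 49.8 CPM, 0.822% had an equal or larger coefficient of variation than its 85.8%. The marker list of B cells had 2 of 8 genes detected, Cd79a and Vpreb3, with Ms4a1, Pax5 and Fcer2a at 0 counts, and its summed level was 12.3, 23.8 and 53.0 CPM. That of plasma cells had 8 of 9 detected and summed to 12474, 34227 and 62740 CPM, nearly all from Jchain, Igkc and Igha. Of its other genes, Xbp1 (339, 341 and 604 CPM), Mzb1 (22.6, 24.4 and 85.4) and Prdm1 (11.2, 12.1 and 15.2) kept this order. So did Tnfrsf17 (5.38, 6.43 and 9.70) and the undetected Sdc1, whereas Derl3 had 3.84, 2.90 and 2.53. The epithelial list, with only Epcam of its 9 genes detected and Krt5, Krt14, Cdh1 and Sftpc at 0, summed to 29.5, 9.90 and 25.8 CPM. In mice 1 and 3 this sum was nearly all Epcam, which had 29.4, 3.70 and 25.8 CPM in mice 1, 2 and 3. Krt18 (0, 4.21 and 0 CPM) and Vil1 (0, 1.82 and 0) went the other way, with counts in mouse 2 only. The B cell and plasma cell sums were highest in mouse 3, as Ly6d was, but lowest in mouse 1, whereas the epithelial sum was lowest in mouse 2, as Ly6d was. The sort removed B220+ cells and kept only CD45+ cells, and the part of other cells in the Ly6d values was not tested. In bulk libraries, fewer cells of a kind and less RNA per cell cannot be told apart.

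Thy1 lies outside the cluster, on the plus strand of chromosome 9 (44043384 to 44048579). It had 864, 449 and 550 counts, or 38.1, 25.5 and 21.1 CPM in mice 1, 2 and 3. Mouse 1 was 1.81 times as high as mouse 3. The level of 28.2 ± 8.83 CPM had a coefficient of variation of 31.3%, near the median of 29.2% over 2828 genes within 2-fold of it.

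Since a longer transcript gives more reads in full-length libraries, levels of different genes were compared as CPM per kb of summed exon length. On this scale Ly6e had 1600 ± 281 CPM per kb and stood 46th of 8326 detected genes with a length. Ly6a had 915 ± 42.4 and stood 73rd, Ly6d had 78.0 ± 67.0 and stood 845th, and Thy1 had 9.43 ± 2.95 and stood 3219th. The ranges over the 3 mice of neighbours in this order did not overlap down to Thy1. Below it, those of Thy1 and Ly6k, of Ly6k and Ly6c2, and of Ly6c2 and Ly6c1 overlapped, so these neighbours did not differ beyond their spread. Within each library, Ly6e exceeded Ly6a by 0.79 ± 0.32 on the log2 scale of (CPM + 0.5) per kb (3 of 3 mice). Without division by length the same difference was 2.44. Ly6a exceeded Ly6d by 3.91 ± 1.33 in 3 of 3 mice. Ly6d exceeded Thy1 by 2.09, 1.63 and 4.42 in mice 1, 2 and 3. In CPM without division by length, the mean of this last difference was 0.70, and Ly6d was below Thy1 in mouse 2.

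The message of the sorted protein THY1 was the lowest of the 4 genes behind the positive antibodies. Per length, the log2 difference of Thy1 from Ptprc (CD45, 25.6 ± 4.94 CPM per kb) was -1.44 ± 0.19. It was -4.59 ± 0.21 from Il7r (CD127, the interleukin-7 receptor chain; 227 ± 41.8 CPM per kb), and -6.62 ± 0.59 from Klrg1 (a lectin-like inhibitory receptor; 922 ± 166 CPM per kb). Ly6a, which was no criterion of the sort, exceeded Thy1 by 6.62 ± 0.39. Each direction held in 3 of 3 mice. For all 7 pairs the exact two-sided sign-flip permutation test gave p = 0.25, the smallest that 3 libraries allow (0.25 also after Benjamini-Hochberg adjustment over the 7 pairs), so none could pass 0.05. The difference from Ptprc was -4.05 without division by length and -2.32 per kb of the first listed transcript.

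**Figure D3:**
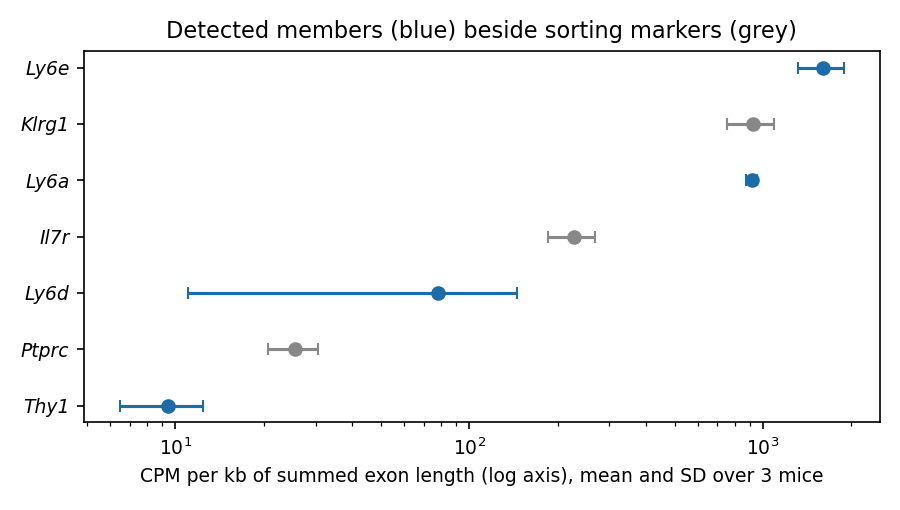
Mean CPM per kb of summed exon length (log axis) with SD over 3 mice for the 4 detected members (blue) and the other 3 genes of the positive sorting antibodies (grey). Ly6e and Ly6a lie at the level of Klrg1 or above it, and Thy1 is the lowest of the 7 genes.

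The remaining members were low or absent, and most were uneven. Ly6k, best known from testis and sperm function, lies on the minus strand of chromosome 15 (74796874 to 74799968). It had 219, 1 and 79 counts in mice 1, 2 and 3, or 9.66, 0.0569 and 3.03 CPM. With a single count in mouse 2, the ratio of mouse 1 to mouse 2 was 170, with a 95% exact counting interval of 30.2 to 6740. Of 2739 other genes within 2-fold of its mean, 8.91% had an equal or larger coefficient of variation and 9.57% had a library at 0. Epcam, the detected gene of the epithelial list, had 29.4, 3.70 and 25.8 CPM and was also lowest in mouse 2. Krt18 and Vil1 of that list had counts in mouse 2 only. The part of other cells in the Ly6k values was not tested.

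Ly6c1 lies on the minus strand at 75044018 to 75048920 and had 4, 97 and 28 counts, or 0.176, 5.52 and 1.07 CPM in mice 1, 2 and 3. Ly6c2 lies on the minus strand at 75108161 to 75112066 and had 22, 69 and 202 counts, or 0.971, 3.92 and 7.75 CPM. The genes were both lowest in mouse 1, but Ly6c1 was highest in mouse 2 and Ly6c2 in mouse 3. Ly6c1 was 31.3 times as high in mouse 2 as in mouse 1 (95% counting interval 11.8 to 117) and Ly6c2 7.98 times as high in mouse 3 as in mouse 1 (5.13 to 13.0). Since reads of the 2 genes may have been divided, their sum was also taken, and it was 1.15, 9.44 and 8.82 CPM. Per 100 counts of Ly6a there were 0.0157, 0.483 and 0.103 counts of Ly6c1 in mice 1, 2 and 3. Whether reads of Ly6a entered the counts of Ly6c1 was not tested. The monocyte and macrophage list had 3 of 10 genes detected, with Adgre1 at 0, and summed to 43.6, 93.8 and 62.9 CPM. Its sums rest mainly on Ccr2 (15.3, 41.0 and 31.1 CPM) and on Lyz2, highest in mouse 2 at 36.7 CPM. The list of natural killer cells and ILC1s had 2 of 9 detected, Gzma and Ncr1, with Klra4 and Klra8 at 0 and a single count, in mouse 2, for each of Eomes and Tbx21. It summed to 8.47, 244 and 55.4 CPM, of which Gzma, a cytotoxic granule protease, alone gave 7.19, 229 and 48.2. Prf1 (0, 5.63 and 0.230 CPM), Xcl1 (0, 1.36 and 0.384) and Klrb1c were, like Gzma, highest in mouse 2 and lowest in mouse 1. Ly6c1 and the monocyte and macrophage sum had the same order, whereas Ncr1 was highest in mouse 3. Of the 8 endothelial genes only Pecam1, which leukocytes also express, was detected, and Cdh5, Kdr and Cldn5 had 0 counts. The B cell and plasma cell sums given above were highest in mouse 3, as Ly6c2 was. The sort removed CD11b+, NK1.1+ and B220+ cells. The part of any such cells left in the Ly6c1 and Ly6c2 values was not tested.

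The promoters of Ly6c1 and Ly6c2 are shown because the coding sequences of these genes are nearly identical. Whether promoter sequence bears on their levels was not tested. Each window runs from 250 bases before to 50 bases after the first RefSeq start listed for the gene (GRCm38.p6, minus strand, chr15:75048788-75049087 and chr15:75111922-75112221), 5′ to 3′, with capitals marking TATAAA.
Ly6c1 promoter: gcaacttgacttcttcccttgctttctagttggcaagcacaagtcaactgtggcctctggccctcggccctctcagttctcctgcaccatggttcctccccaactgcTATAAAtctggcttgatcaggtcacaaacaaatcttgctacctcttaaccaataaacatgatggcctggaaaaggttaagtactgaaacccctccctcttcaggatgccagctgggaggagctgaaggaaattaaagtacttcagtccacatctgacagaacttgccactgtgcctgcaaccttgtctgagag
Ly6c2 promoter: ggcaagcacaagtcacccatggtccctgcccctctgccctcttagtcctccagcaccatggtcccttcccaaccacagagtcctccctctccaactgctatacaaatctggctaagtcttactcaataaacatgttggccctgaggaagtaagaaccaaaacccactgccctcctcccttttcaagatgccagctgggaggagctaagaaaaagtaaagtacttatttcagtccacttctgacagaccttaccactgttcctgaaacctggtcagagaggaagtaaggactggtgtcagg
Where they overlapped, the 2 windows were identical in 73.8% of 282 aligned columns, compared with 97.7% between the coding sequences. The table holds 2 windows for each of Ly6c1, Ly6c2 and Ly6g. On either strand, TATAAA was found in the first but not the second window of Ly6c1, in neither of Ly6c2 and in both of Ly6g, and 13.6% of 32817 promoter windows hold it. The interferon-response motifs TTCNNNGAA (8.29% of windows) and GAAA followed after NN by another GAAA (3.43%), searched on both strands, had no match in the windows of these 3 genes. A match describes letters only.

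Ly6i, a close relative of Ly6a on the minus strand (74979534 to 74983434), had 1, 2 and 1 counts in mice 1, 2 and 3, at or under the 3 counts that a count of 0 allows, and is not distinguished from absence. Ly6g, the neutrophil marker recognised by antibodies to GR-1, lies on the plus strand (75155261 to 75159128) and had 0 counts in each library. A count of 0 allows up to 0.132, 0.171 and 0.115 CPM in mice 1, 2 and 3. Of 11 neutrophil genes 0 were detected and 10, among them S100a8, S100a9 and Csf3r, had 0 counts in every library.

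Differences between mice were then tested over all genes. For each gene the quasi-dispersion of an intercept-only edgeR fit was divided by the trend for its abundance, and high ratios were sought with a one-sided F test. Of 9175 genes tested, 19 (0.207%) were more variable than the trend at a Benjamini-Hochberg adjusted p below 0.05. This count was 0 with a robust prior (388 at an unadjusted p below 0.05). It was 1 of 9136 when immunoglobulin genes were left out of the tested set. Of the 9 members 5 passed the filter on low counts, and 0 of these 5 were among the 19. Among these 5 was Ly6d, 5.88 times as high in mouse 3 as in mouse 2. A member that was not called is therefore not shown to be even between mice. The limma and DESeq2 versions also called 0 members, and 1 member, Ly6d, had an unadjusted p below 0.05 with edgeR and with limma. Ly6d had a log2 ratio to the trend of 3.56 (adjusted p = 0.601, edgeR), 40th of the tested genes. Without mouse 1 it passed (adjusted p = 0.0366, edgeR), and without mouse 3 its ratio fell to 1.01 (adjusted p = 0.972). The log2 ratio was 1.36 for Ly6c2 (adjusted p = 0.977), 0.18 for Ly6e (0.991), -0.38 for Thy1 (0.992) and -4.09 for Ly6a (0.998). Ly6c1, Ly6g, Ly6i and Ly6k did not pass the filter, which asks in every library for the CPM that 10 counts give in the median library. Ly6c1 and Ly6k, the members with the widest ratios between mice, failed through mouse 1 and mouse 2 respectively. Without a filter 8 members were tested and 0 were called.

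**Figure D4:**
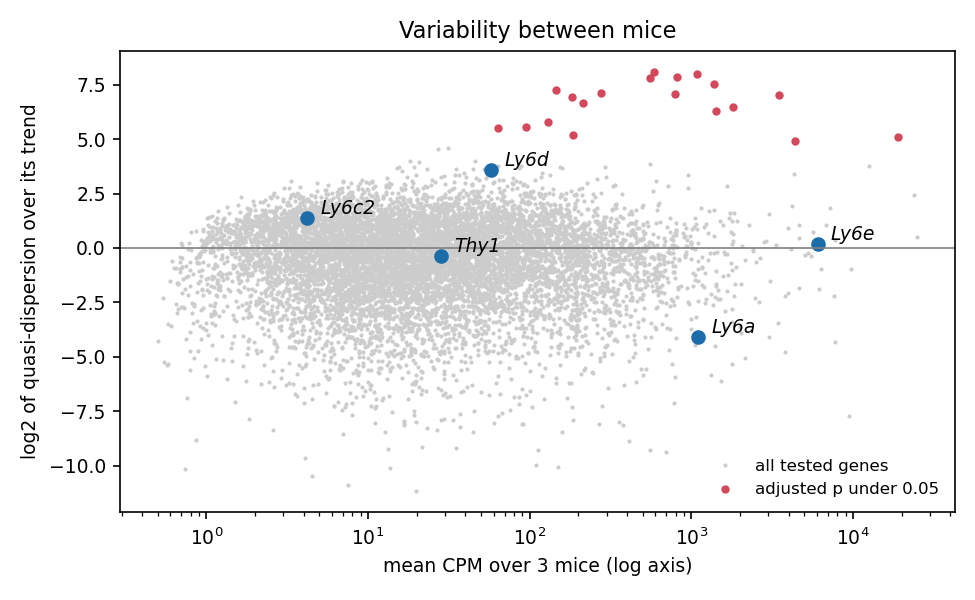
Log2 ratio of each tested gene's quasi-dispersion to the abundance trend against its mean CPM (log axis). Grey points are all 9175 tested genes, red points the 19 with an adjusted p below 0.05 (edgeR), and blue points the 5 tested members, of which Ly6d lies highest at 3.56 and Ly6a lowest at -4.09.

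Along chromosome 15 the members' levels changed sharply from gene to gene. The 8 members on this chromosome span 397 kb, a region with 24 RefSeq genes of which 15 had a row. The 3 detected genes in it, Ly6d, Ly6e and Ly6a, were all members. Ly6i, between Ly6e and Ly6a, had at most 2 counts in any library. Of the 7 other genes with a row, 4 had no count (Gml, Gml2, Cyp11b1 and Cyp11b2), Ly6g6g and Ly6m had a single count each, in mouse 2, and Ly6a2 had 16 counts, all in mouse 3.

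**Figure D5:**
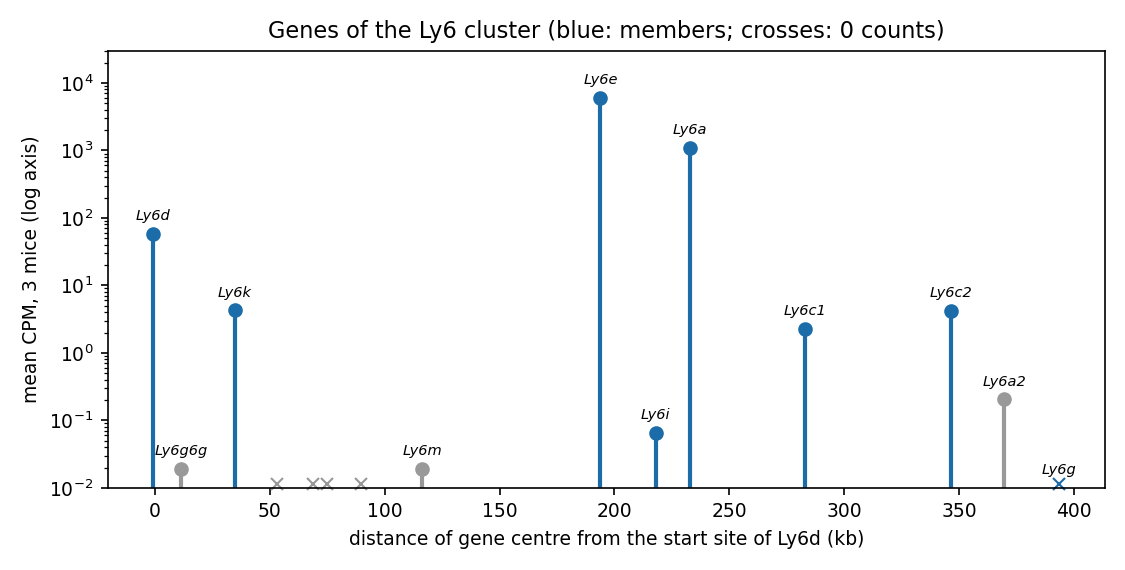
Mean CPM over 3 mice (log axis) of the 15 genes with a row between Ly6d and Ly6g, at the distance of each gene's centre from the start site of Ly6d. Members are blue, other genes grey, and crosses mark genes with 0 counts in all 3 libraries. Ly6e and Ly6a stand above all others, with the nearly silent Ly6i between them.

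Other genes with an LY6/uPAR domain were mostly silent. Of 35 with a row, 2 were detected (5.71%, against 38.0% of the protein-coding genes) and 21 had no count in any library. Plaur, which encodes the urokinase receptor, reached 335 ± 62.1 CPM, and Ly6g5b had 9.87 ± 5.45. Cd59a and Cd59b, which encode inhibitors of the complement membrane attack complex, were not detected. Ly6g6f had 0, 3.36 and 0 CPM in mice 1, 2 and 3.

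Transcripts of most, but not all, listed genes for synthesis and remodelling of the GPI anchor were detected. Of 31 genes 22 were detected (71.0%), and none lacked counts altogether. The share was 31.1% over all gene IDs, 38.0% over protein-coding genes and 56.1% over genes with a count. The highest were Dpm1 (417 ± 50.5 CPM), Dpm3 (133 ± 33.1) and Dpm2 (125 ± 25.1), the subunits of dolichol-phosphate mannose synthase, and Pigx (205 ± 22.3), a subunit of the first mannosyltransferase. Piga, the catalytic gene of the first step, had 13.2 ± 6.11 CPM. Pigq (3.75, 0.796 and 8.36 CPM) and Pigz (0.265, 0.0569 and 1.88) differed more than 8-fold between mice. Pigg, Pigt (0, 0.455 and 2.15 CPM in mice 1, 2 and 3), Pigw, Pgap1, Pgap2 and Pgap3 had a library at 0. None of these genes, nor Pigo, was detected. A list of 24 other leukocyte surface proteins was drawn up as GPI-anchored, although Tnfrsf10b and Ulbp1 encode transmembrane proteins in mice. Of these 12 were detected, Tnfrsf10b included, led by Cd52 (2041 ± 217), Cd48 (455 ± 50.6), the class I gene H2-Q7 (414 ± 134), whose close relatives may share its reads, and Cd160 (196 ± 24.4). Of 30 interferon-induced genes 22 were detected (73.3%). They were led by Rtp4 (225 ± 108), Ifi35 (213 ± 31.6), Ifi47 (184 ± 2.90) and Igtp (176 ± 58.7), while Mx1 and Ifit2 had 0 counts and Oas3 ranged from 0.0569 to 7.75 CPM.

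The genes with the pattern over the 3 mice most like that of Ly6e were Lmbrd1, Hsp90ab1 and Cdkn2aipnl, by root mean square distance of centred log2 (CPM + 0.5). For Ly6a they were Nedd4l, Tmed7 and Fam104a, and for Thy1 Smc5, Dennd5a and Ubn2. Over only 3 libraries such likeness is common: of 6133 genes compared, 319 lay within 0.1 of Ly6e, 631 of Ly6a and 110 of Thy1.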

How the data were processed

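Each library has a column of read counts in the table the authors deposited, keyed by Entrez gene ID, whole and not normalized. The submitters' processing notes name CASAVA 1.8.2, STAR 2.3.0 and the build mm10. A SMARTer ultra-low-input kit made the cDNA, per the labels' protocols. Neither counting program nor annotation is given in the sources used here. Symbols and coordinates are those of RefSeq GRCm38.p6 (25275 of 27179 IDs matched), and exon lengths and transcripts those of GENCODE M21. Of the listed genes 3 were matched through an older symbol and 1 (Ly6l) had no row.

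CPM rest on TMM-scaled library sizes (trimmed mean of M values, edgeR 4.0.16, R 4.3.3, factors 1.03, 0.987 and 0.989). Log values are log2(CPM + 0.5). Variability was tested with edgeR glmQLFit on genes passing filterByExpr (minimum count 10). limma 3.58.1 and DESeq2 1.42.0 were alternatives, with other scalings, filters, pseudocounts and lengths, and each mouse left out. Named genes were the members and, per gene list, those above 100 CPM (at most the 4 highest) and those with a count in every library that differed over 8-fold. Other genes, including all named from the cell type marker lists, were chosen after their values were seen. The members and lists were chosen with earlier results of these data known. That samples are separate mice rests on the series' design text.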

Additional observations from a re-analysis of the deposited data

How the results depend on the processing

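No paired analysis was possible because all 3 libraries belong to a single group. Of 51 comparisons of a main result with an alternative, 46 stayed within 1.5 times or 1 SD of the value, 5 moved, and none reversed. DESeq2 size factors, or no TMM scaling, left the count of detected members and all pair directions as they were, as the pseudocounts did the pair directions. Members detected were 4, or 8 when any count in each library sufficed, 5 at a minimum of 0.5 CPM (Ly6c2 in mouse 1 lies at 0.971), and 4 to 6 without each mouse in turn, 6 without mouse 1. The count of genes more variable than the trend was 19, but 0 with a robust prior (388 at an unadjusted p below 0.05), 1 without immunoglobulin genes, 27 without a filter or at 5 CPM and more, and 14 to 31 without each mouse in turn, 31 without mouse 1. Leaving out immunoglobulin genes also took them out of the tested set, which went from 9175 to 9136 genes. In that setting 456 genes had an unadjusted p below 0.05 (edgeR F test), against 401 in the main setting. How many of the 19 were immunoglobulin genes is not given here. The cause of the drop to 0 or to 1 was not tested. Members called were 0 to 1 without each mouse in turn, the 1 being Ly6d without mouse 1. The mean share of Ly6e was 82.2% to 84.7% without each mouse in turn. Length per first listed transcript was chosen after the data were seen. Depth limits Ly6g, Ly6i, and the lowest libraries of Ly6k and Ly6c1.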

Other observations

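Among genes whose products are known to act with THY1 or with GPI-anchored proteins, 5 of 8 integrin and syndecan partners were detected (62.5%). Itgav (133 ± 42.9 CPM), Itgb3 (59.5 ± 3.86), Itgb1 (47.2 ± 7.65) and Itgb2 (27.2 ± 6.09) encode integrin chains, and Sdc4 (6.24 ± 1.29) a syndecan. Of 14 Src family kinases and raft adaptors 8 were detected (57.1%). Over all protein-coding genes the share was 38.0%, and over genes with a count 56.1%. Both list shares lay close to the latter. Lat, the adaptor of T cell receptor signalling, had 404 ± 46.4 CPM and the kinase gene Lyn 154 ± 8.70. The kinase genes Lck and Fyn had 43.8 ± 24.6 and 23.3 ± 13.4 CPM. Flot2 (0.926, 3.07 and 8.71 CPM) and Cav1 (9.09, 0.171 and 4.68) differed more than 8-fold between mice 1, 2 and 3, and Fgr and Blk had no counts.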
